A study of Mus musculus with 3 samples.

Results

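The 10 genes described here are the core genes of the endoplasmic reticulum (ER) stress response: Hspa5, Hsp90b1, Calr, Canx, Pdia3, Pdia4, Xbp1, Atf4, Ddit3 and Herpud1. They were chosen by name, with earlier results of these data known. Every probe set that the array's annotation assigns to them was read, which gave 26 probe sets among the 45101 of the table and 10 of its 18194 named genes. The samples are 3 cultures of imLECs, immortalized lymphatic endothelial cells sorted by FACS from the skin of healthy H-2Kb-tsA58 mice (ImmortoMice), with 1 culture each at passages 13, 14 and 18. All 3 carry the same transgene, the tsA58 form of SV40 large T antigen, which is unstable at the higher temperature, driven by the interferon-inducible H-2Kb promoter, and all were handled alike. They were grown at 33 °C with 1 unit/ml of interferon-gamma, then kept for 3 days at 37 °C without it so that the T antigen is degraded, and their RNA was hybridised to 1 array each. Every culture had this change of temperature and medium, so its effect on the genes cannot be read from these arrays. The labels do not say how many mice or cell isolations the cultures came from, and since each passage is 1 culture, a difference between passages has no replicate check.

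As background, proteins bound for the cell surface or for secretion fold inside the ER. Hspa5 (BiP) and Hsp90b1 (GRP94) are its chaperones of the Hsp70 and Hsp90 families, calreticulin (Calr) and calnexin (Canx) hold glycoproteins until they are folded, and Pdia3 and Pdia4 form and rearrange disulfide bonds. When unfolded protein builds up, the sensors Ern1 (IRE1), Eif2ak3 (PERK) and Atf6 start the unfolded protein response. Ern1 splices the Xbp1 transcript so that it encodes an active transcription factor, Eif2ak3 raises translation of Atf4, Atf4 induces Ddit3 (CHOP), a factor tied to cell death under lasting stress, and Atf6 induces chaperone genes. Herpud1 is an ER membrane protein that takes part in the degradation of misfolded proteins and is itself induced by the response. Endothelial cells make much secreted and membrane protein, including matrix and receptors.

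Promoter sequences were looked at first, since a short element is what part of the 10 genes share apart from their names. The ER stress element, through which Atf6 and Xbp1 act, is CCAAT, then 9 bases, then CCACG. It was searched on both strands from 250 bases before to 50 after each annotated start (RefSeq, assembly GRCm38.p6, 10 of 10 genes matched). It was present in 4 of the 10 genes, Hspa5, Hsp90b1, Calr and Canx, which are the 4 chaperones. Over all promoters of that length it was present in 0.119% (39 of 32851). The element was picked beforehand for its known role in this response, so its presence in these genes is a description and no test. The stretches below are those holding the element, with its 2 fixed parts in capitals, which on the opposite strand read CGTGG and ATTGG. They lie at chr2:34772005-34772063 (plus strand) for Hspa5, at chr10:86705618-86705676 and chr10:86705513-86705571 (minus strand) for Hsp90b1, at chr8:84847055-84847113 (minus strand) for Calr, and at chr11:50325780-50325838 (minus strand) for Canx, and each is written 5′ to 3′ on the strand of its gene.
Hspa5: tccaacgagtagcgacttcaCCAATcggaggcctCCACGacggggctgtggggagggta
Hsp90b1, farther from the start: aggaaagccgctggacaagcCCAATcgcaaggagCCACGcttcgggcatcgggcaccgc
Hsp90b1, nearer to the start: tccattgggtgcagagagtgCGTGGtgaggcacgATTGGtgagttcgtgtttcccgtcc
Calr: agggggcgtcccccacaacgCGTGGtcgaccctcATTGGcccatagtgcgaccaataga
Canx: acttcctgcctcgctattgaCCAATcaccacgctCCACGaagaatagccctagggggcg

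The Hspa5 element began 65 bases before the annotated start, the Canx element 145 and the Calr element 162 bases before it. Hsp90b1 had 2 elements, beginning 212 and 107 bases before the start, of which the nearer was on the opposite strand. The CCACG part alone was in the windows of Atf4 and Herpud1 (2 matches each) and Pdia4 (1 match, inside the transcribed part) as well as in those of the 4 chaperones, which makes 7 of 10 genes, but it is common, with 32.8% of all windows holding it. TGACGTGG, a site bound by Xbp1 and Atf6, was in none of the 10 windows and in 0.676% of all. TGATGNAAT, a form of the amino acid response element bound by Atf4, was likewise in none of the 10 and in 0.965% of all. Among 67 other genes of the response described further on, 56 had a promoter in the table and 6 held the full element: Creld2, Derl3, Dnajc3, Ero1b, Pdia6 and Syvn1. A match describes the letters in the window and was not tested as a binding site.

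**Figure D1:**
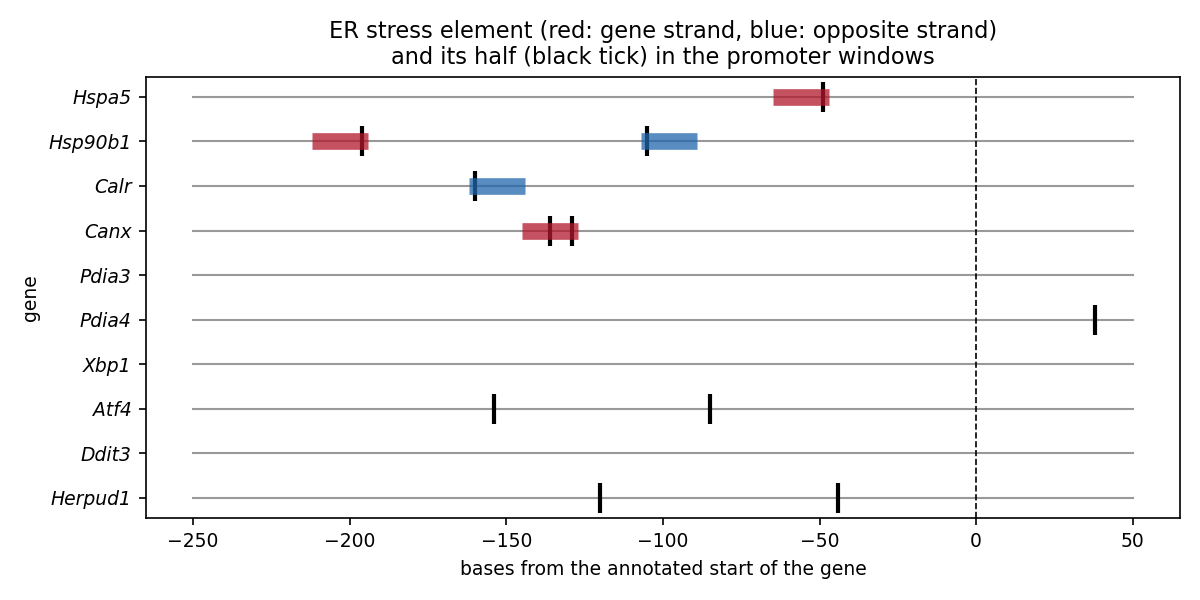
Positions of the ER stress element (thick bars, red on the strand of the gene and blue on the opposite strand) and of CCACG (black ticks) in the promoter windows of the 10 genes, in bases from the annotated start, with the gene on the vertical axis. The full element is in the 4 chaperone genes, with 2 copies in Hsp90b1, and in none of the other 6.

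Over the whole table, the 3 arrays had median intensities of 25.7 to 26.3. A gene was called detected where it lay, on all 3 arrays, above a floor set by 39 genes restricted to other tissues. That floor was 39.8 intensity units at passage 13, 50.7 at 14 and 37.7 at 18, and 9259 of 18194 genes (50.9%) passed. Of 8 lymphatic endothelial markers 7 were detected, and the eighth, Prox1, the factor that sets lymphatic identity, was above the floor at passages 13 and 18 (log2 6.20 and 5.60) and below it at 14 (5.11). All 8 pan-endothelial markers were detected, among them Cdh5 and Pecam1. The leukocyte markers Ptprc, Itgam, Cd3e and Cd14 and the plasma cell markers Tnfrsf17, Mzb1, Prdm1 and Irf4 were below the floor on every array. The other 3 of 7 leukocyte markers were detected on all 3, with Cd68 at 126.9, 243.9 and 58.15, Cd53 at 244.3, 121.4 and 64.64 and Lyz2 at 50, 63.91 and 38.86 at passages 13, 14 and 18. Of the 5 plasma cell markers, Sdc1 was detected. The passage 18 array differed in its control probe sets, with a Gapdh 3′ to 5′ signal ratio of 19.4 against 8.59 at passage 13 and 7.10 at passage 14. The Actb ratio was 1.42 at passage 18, against 1.18 at 13 and 1.20 at 14.

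All 10 genes of ER stress were detected in the 3 cultures. Of their 26 probe sets, 22 were above the floor on all arrays, 1 of Hspa5 on 2 arrays, and 3 (1 each of Pdia4, Atf4 and Ddit3) on none, which sets only an upper limit for what those probe sets target. The 10 genes varied unequally between cultures. The 6 chaperones and isomerases had a median SD over the cultures of 0.134 log2 units, against 0.240 over all detected genes. Atf4, Ddit3 and Herpud1 were each over 1.5-fold higher at passage 18 than at 13, as were 7.23% of detected genes. The brightest probe sets had mean log2 levels of 10.51 to 12.42 for the 6 and 7.77 to 10.26 for the other members. SDs were not compared at like brightness, here or below, so the part of brightness in them was not tested. Levels below are intensities of a gene's brightest probe set unless another is named, and levels of different genes are not set against each other, since probes differ in brightness. In RNA from whole cultures, a lower level per cell and fewer cells that express a gene cannot be told apart.

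**Figure D2:**
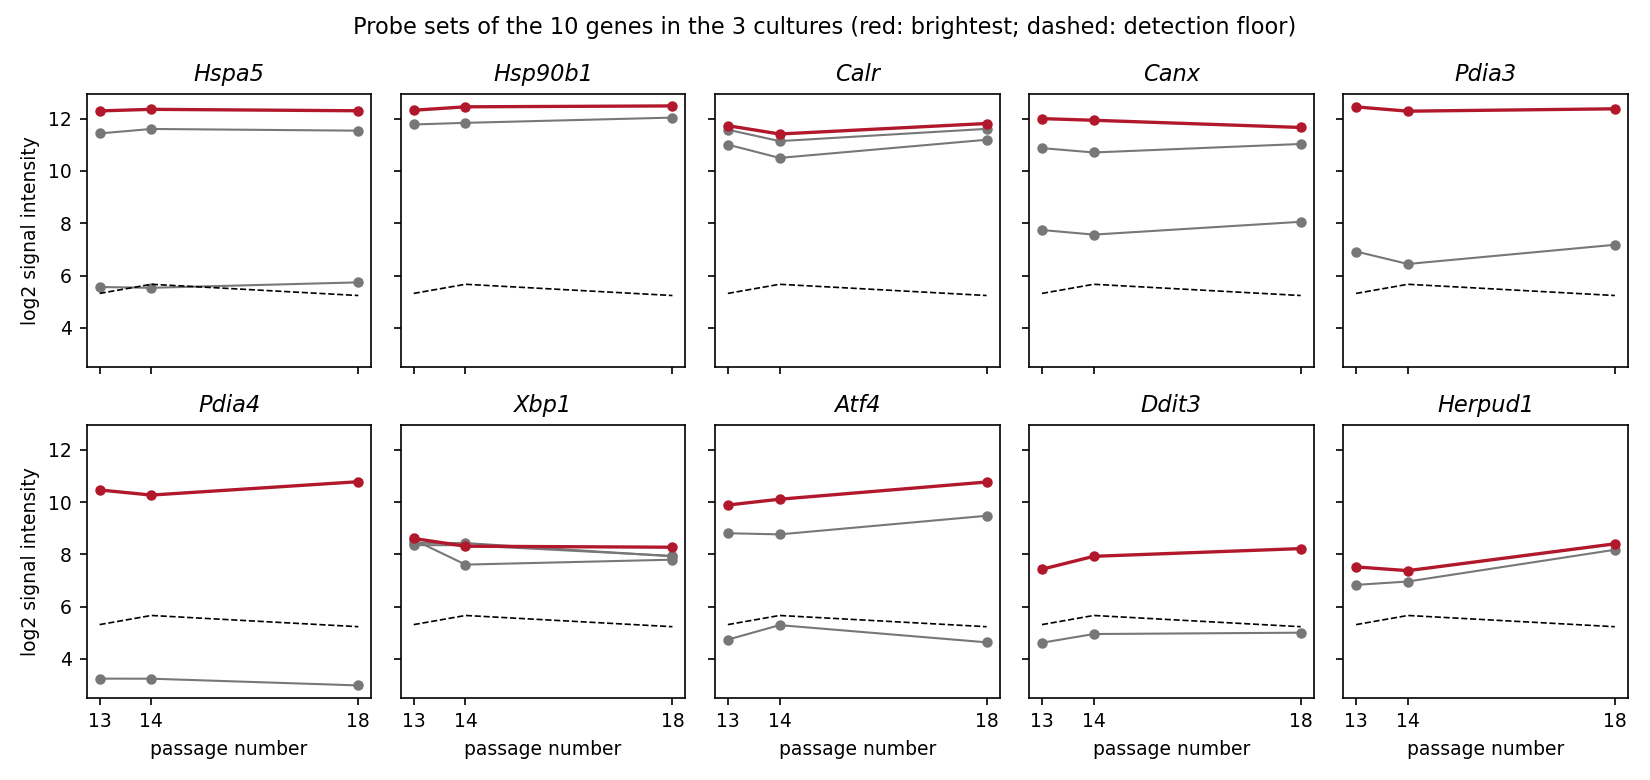
Log2 signal intensity (vertical axis) of each probe set of the 10 genes against passage number (horizontal axis), 1 culture per point. Red marks the brightest probe set of each gene, grey the others, and the dashed line the detection floor; Hspa5 is nearly level, while Atf4, Ddit3 and Herpud1 are highest at passage 18.

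Among the chaperones, Hspa5, the main Hsp70 of the ER and a standard readout of ER stress, read 5037 at passage 13, 5251 at 14 and 5054 at 18. Its log2 level was 12.32 ± 0.033 (SD, n = 3), and 97.9% of detected genes had a larger SD. A second Hspa5 probe set read 2771, 3120 and 2982. Both placed the highest value at passage 14, where they were 1.04-fold and 1.13-fold above passage 13.

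Hsp90b1, which folds a narrower set of clients that includes integrins and Toll-like receptors, read 5126, 5614 and 5749 at passages 13, 14 and 18 (12.42 ± 0.087, SD, n = 3). Its other probe set gave the same order, with 3512, 3670 and 4218. The culture of passage 18 was the highest by both, at 1.12-fold and 1.20-fold the passage 13 value.

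Calr, a soluble lectin chaperone that also stores calcium, read 3402, 2730 and 3606 (11.65 ± 0.212, SD, n = 3). All 3 of its probe sets were lowest at passage 14, by 1.25-fold to 1.42-fold against passage 13, and highest at 18. The names of the 2 brightest mark them as open to cross-hybridisation. The other, not so marked, read 2059, 1448 and 2343 and was 1.62-fold higher at 18 than at 14. Canx, the membrane-bound relative of Calr, read 4107, 3929 and 3247 (11.87 ± 0.180, SD, n = 3) by the brightest probe set, which was lowest at passage 18. The other 2 Canx probe sets went the other way, with 1877, 1673 and 2095 and with 213.9, 189.4 and 266.0, both highest at passage 18. The order of the cultures for Canx therefore turns on the probe set, and the cultures were at most 1.40-fold apart by any of the 3.

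Of the disulfide isomerases, Pdia3, which works with Calr and Canx on glycoproteins, read 5602, 5002 and 5324 (12.37 ± 0.082, SD, n = 3). A dim Pdia3 probe set, at 121.0, 86.93 and 144.6, was also lowest at passage 14 but was 1.20-fold higher at 18 than at 13, where the bright one was 1.05-fold lower. Pdia4, an isomerase induced together with Hspa5 in other settings, read 1415, 1236 and 1761 (10.51 ± 0.258, SD, n = 3) and was 1.24-fold higher at passage 18 than at 13. By brightest probe sets Pdia4 was the most variable of the 6 folding genes, with an SD exceeded by 46.0% of detected genes. Dimmer probe sets of Calr and Pdia3 had larger SDs, of 0.359 and 0.373.

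Of the transcription factors, Xbp1, whose spliced form drives folding and degradation genes, read 391.0, 318.3 and 310.0 (8.40 ± 0.183, SD, n = 3). All 4 of its probe sets were lower at passage 18 than at 13, by 1.26-fold, 1.43-fold, 1.33-fold and 1.70-fold. They differed at passage 14, where 1 read 195.5 against 378.1 at passage 13 and 2 others were within 1.01-fold. The array values hold no measure of Xbp1 splicing.

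Atf4, the factor translated under PERK signalling and amino acid shortage, read 949.2, 1107 and 1747 (10.26 ± 0.458, SD, n = 3). It was 1.84-fold higher at passage 18 than at 13 by this probe set, whose name marks it as open to cross-hybridisation. A second one, not so marked, read 448.9, 435.8 and 713.5 and was 1.59-fold higher. By both, passage 18 stood above the other cultures, and passages 13 and 14 were within 1.17-fold of each other.

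Ddit3, the Atf4-induced factor CHOP, read 172.9, 243.5 and 298.9 (7.86 ± 0.399, SD, n = 3). Passage 14 was 1.41-fold and passage 18 1.73-fold above passage 13, so both later cultures stood above the earliest. It rests on 1 detected probe set, and the other read 24.62, 31.01 and 32.13, below the floor on every array.

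Herpud1 had the largest SD of the 10 genes. It read 183.8, 166.5 and 339.1 (7.77 ± 0.556, SD, n = 3), and 11.9% of detected genes had a larger SD. Passage 18 was 2.04-fold above passage 14 and 1.84-fold above 13. Its second probe set, at 114.2, 124.8 and 289.8, gave 2.32-fold and 2.54-fold. The step lay between passage 18 and both others, which differed by 1.10-fold and 1.09-fold, in opposite directions, by the 2 probe sets.

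Counts past a fold limit, by brightest probe set, are given beside the share of all detected genes past it. Between passages 14 and 13, 0 of 10 genes differed at least 2-fold, where 4.95% of the 9259 detected genes did, and between 18 and 13 again 0 of 10, against 4.35%. Between 18 and 14 it was 1 of 10, Herpud1, against 11.8%. At a limit of 1.5-fold, 3 of 10 (Atf4, Ddit3 and Herpud1) were higher at passage 18 than at 13, against 7.23% of detected genes, and 2 of 10 (Atf4 and Herpud1) were higher at 18 than at 14, against 15.3%. None was 1.5-fold lower in either comparison, where 8.02% and 14.3% of detected genes were. Between 14 and 13 none differed by 1.5-fold in either direction, against 16.5%. Some dimmer probe sets passed 1.5-fold where the brightest did not. Those of Calr and Pdia3 were 1.62-fold and 1.66-fold higher at 18 than at 14. One of Xbp1 was below passage 13 by 1.93-fold at 14 and 1.70-fold at 18. The median log2 differences of the 10 genes were -0.10 for 14 minus 13, 0.12 for 18 minus 13 and 0.19 for 18 minus 14, and those of all detected genes were -0.003, -0.016 and 0. The 3 comparisons share cultures, so they are not independent of each other. By brightest probe set 6 of the 10 genes had their highest value at passage 18, 3 at 13 and 1 at 14, and of all detected genes 37.0% were highest at 18, 25.7% at 13 and 37.3% at 14.

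**Figure D3:**
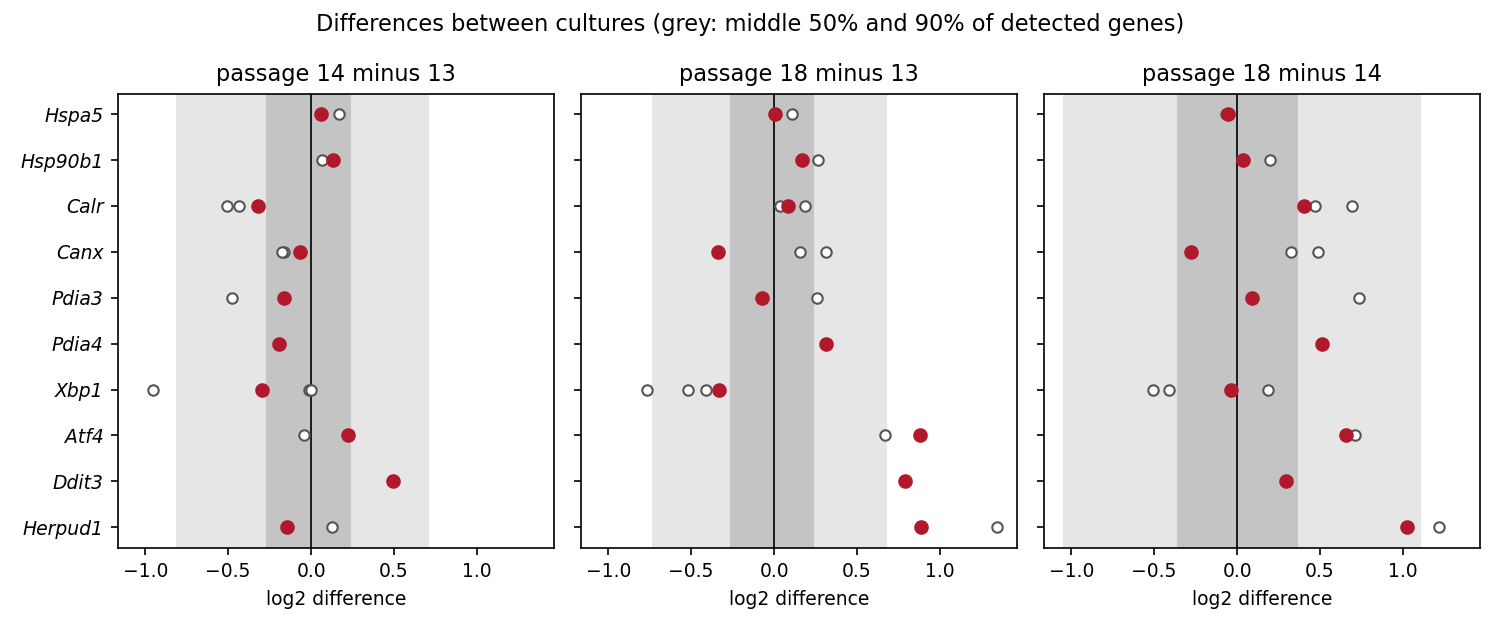
Log2 difference between each pair of cultures (horizontal axis) for the 10 genes, with red points for the brightest probe set and open points for the other probe sets detected on all arrays. Grey bands hold the middle 50% and 90% of 9259 detected genes; Atf4, Ddit3 and Herpud1 lie right of the 90% band for passage 18 minus 13 by their brightest probe sets, and inside it for 18 minus 14.

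A trend with passage number was fitted in limma over 9935 genes. It called 0 of the 10 genes, with adjusted p-values from 0.896 to 0.986, and 0% of all genes tested. At an unadjusted p under 0.05 there was 1 of the 10, Atf4, and 3.53% of all genes. Atf4 had a slope of 0.173 log2 units per passage (SE 0.051, limma unadjusted p = 0.0315, adjusted p = 0.896), and Herpud1 one of 0.200 (SE 0.072, limma adjusted p = 0.896). With 3 arrays the fit has 1 residual degree of freedom before the spread is shared over genes. With a culture left out, the slope is the difference between the remaining cultures divided by the passages between them. It restates the pairwise differences, and its size is not like that of the fitted slope. Leaving out passage 18 turned the Herpud1 slope to -0.14, the Calr slope from 0.041 to -0.32 and the Pdia4 slope from 0.082 to -0.20, so these directions rest on that culture. By their brightest probe sets Ddit3, Atf4 and Hsp90b1 had a positive slope, and Canx and Xbp1 a negative one, whichever culture was left out. For Atf4 the sign without passage 18 turned on the probe set, at 0.22 by the brightest and -0.043 by the other detected one, and the other Canx probe sets were higher at passage 18 than at 13.

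Passage 18 also differed in cell type markers and control probe sets, and passage 14 differed from 13 in some of the markers. The summed intensity of 6 fibroblast markers (3 detected, Pdgfra and Lum below the floor on all arrays) was 630, 394 and 2636 at passages 13, 14 and 18. That of 6 mural and smooth muscle markers (2 detected, with Cspg4, Rgs5 and Myh11 below the floor) was 1640, 462 and 5576, and that of 8 pan-endothelial markers was 9440, 10471 and 5899. The 8 lymphatic markers summed to 11978, 10377 and 8040. Such sums weigh bright probe sets most, and the lymphatic markers moved unequally. Pdpn read 4615, 1933 and 3715, Lyve1 1375, 2929 and 162.9, and Sox18 598.9, 1236 and 234.6. Of the 8, 2 were higher at passage 18 than at 13. The 7 leukocyte markers, 3 of them detected, summed to 463, 471 and 217. The 5 plasma cell markers summed to 1220, 878 and 2552, of which Sdc1, a proteoglycan that other cells also make, was the only gene detected. The 6 keratinocyte and epithelial markers (2 detected, with Krt14, Cdh1 and Epcam below the floor) summed to 257, 196 and 269. The part of these markers and of the Gapdh and Actb ratios of 19.4 and 1.42 in the higher Atf4, Ddit3 and Herpud1 values was not tested.

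Of the upstream sensors, proteases and related membrane factors, 9 of 9 genes were detected, and limma called none. Ern1, which splices Xbp1, read 127.2, 125.5 and 116.0 at passages 13, 14 and 18, and Atf6b 119.5, 128.6 and 121.8. Atf6, the precursor of the factor that acts on the ER stress element, read 451.2, 406.8 and 331.3 and was 1.36-fold lower at passage 18 than at 13. Eif2ak3, the kinase upstream of Atf4, read 156.6, 117.6 and 221.0 and was 1.88-fold higher at 18 than at 14. Creb3l1, an ER-tethered factor that acts on collagen genes, had the largest range of the list, with 144.3, 90.81 and 185.5, and was 2.04-fold higher at 18 than at 14.

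All 12 of the other chaperones and cochaperones were detected. Of the 12, 0 differed 2-fold for 14 against 13, 18 against 13 or 18 against 14, where 4.95%, 4.35% and 11.8% of detected genes did. Their median difference for 18 minus 13 was -0.12. Dnajb9, an Xbp1-driven cochaperone of Hspa5, read 734.4, 564.4 and 787.7. Dnajb11 read 2469, 2235 and 2235, and Dnajc10 1441, 1389 and 1667. Dnajc3, an inhibitor of PERK whose promoter holds the ER stress element, read 1314, 1330 and 923.0 and was 1.42-fold lower at passage 18 than at 13. Creld2, named after its values were seen because its promoter holds the element too, read 1404, 1437 and 1423, and 99.3% of detected genes had a larger SD. Fkbp2 had the largest range, with 618.4, 852.6 and 463.9.

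Among other disulfide isomerases and oxidases, 8 of 8 were detected. The median difference for 14 minus 13 was -0.28, and 7 of 8 lay below 0, as did 4656 of all 9259 detected genes. P4hb, the founding member of the isomerase family, read 4173, 3253 and 4596. Pdia5 read 384.0, 260.2 and 556.6, the largest range here, and was 2.14-fold higher at 18 than at 14. Pdia6, which acts with Hspa5, read 1114, 1097 and 834.2, and Txndc5 1412, 901.3 and 1166. Ero1b, an oxidase that recharges the isomerases and was likewise named after its values were seen, read 283.6, 139.1 and 158.3 and was 2.04-fold lower at 14 than at 13.

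For ER-associated degradation, the pathway of Herpud1, 10 of 11 measured genes were detected, and Derl3 was below the floor on all arrays. The largest ratio of passage 18 over 13 among the 10 was 1.22-fold (Syvn1, named after its values were seen), where Herpud1 had 1.84-fold. Edem1, a lectin that picks out misfolded glycoproteins, read 1450, 1276 and 1246, Edem3 280.0, 213.9 and 315.5, and Sel1l, the scaffold of the ubiquitin ligase, 711.3, 882.2 and 841.5. Edem2 had the largest range, with 210.4, 283.0 and 139.5, and was 2.03-fold lower at 18 than at 14.

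Genes known as targets of Atf4 and Ddit3 did not share 1 direction. Of 14, 12 were detected, and their median difference for 18 minus 13 was 0.052, with 8 higher and 4 lower. Of all 9259 detected genes, 4419 were higher and 4794 lower. Trib3, a pseudokinase induced by both factors, read 512.6, 614.8 and 235.2 and was 2.18-fold lower at passage 18 than at 13, where Atf4 and Ddit3 were 1.84-fold and 1.73-fold higher. The name of this Trib3 probe set marks it as open to cross-hybridisation. The other Trib3 probe set, not so marked, read 80.5, 130.1 and 51.54 and was 1.56-fold lower at 18 than at 13, so the difference passed 2-fold by the first alone. The limma slope of the first was -0.26 per passage (SE 0.080, adjusted p = 0.896), the only one of this list with an unadjusted p under 0.05. Nupr1, a stress-induced chromatin protein, had the largest range, with 687.3, 253.3 and 1143, and was 4.51-fold higher at 18 than at 14. Chac1, which breaks down glutathione, read 69.65, 85.42 and 72.19. Asns, asparagine synthetase, read 1167, 1259 and 1321, and Sesn2 239.4, 160.2 and 241.6. The name of the Asns probe set also marks it as open to cross-hybridisation. Named after their values were seen, Atf3 (177.5, 217.9 and 102.8) and Ppp1r15a (81.19, 69.5 and 52.9), which resets translation after PERK signalling, were also lowest at passage 18. So was Psat1 (4558, 6014 and 3522), named in the same way. Vldlr (355.2, 435.1 and 494.5) and Cebpb (340.1, 307.1 and 409.9), likewise named after their values were seen, were highest there. The Vldlr probe set is marked by its name as open to cross-hybridisation. In all, 6 of the 12 detected targets were highest at passage 18. Slc7a11 was below the floor on all arrays, and Stc2 was above it at passage 14 alone.

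The translocon and glycosylation genes, through which proteins enter the ER and receive their sugars, had 11 of 11 measured genes detected and a median SD of 0.144. Sec61a1, the channel itself, read 4025, 4084 and 4719. Sec61b read 1591, 1855 and 1448, Ssr1 1871, 2266 and 2164, and Ssr2 533.5, 481.4 and 545.3. Sec62 had the largest range, with 3106, 2580 and 3834. Over all 6 lists, 62 of 65 measured genes were detected, and limma called 0 of them. The count past 2-fold was 2 of 62 for 14 against 13, 1 of 62 for 18 against 13 and 6 of 62 for 18 against 14, where 4.95%, 4.35% and 11.8% of detected genes passed.

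**Figure D4:**
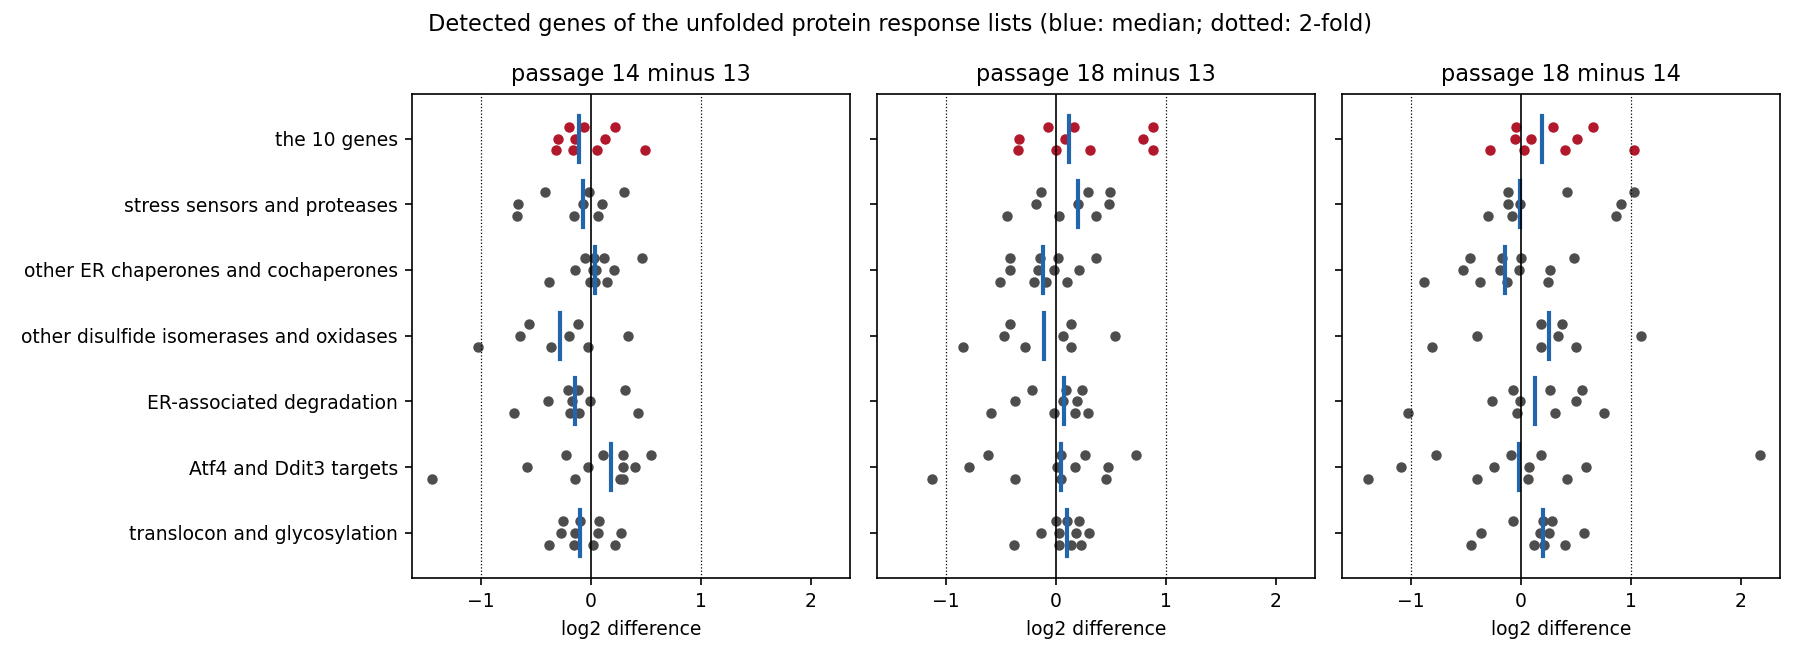
Log2 difference between each pair of cultures (horizontal axis) for the detected genes of the 10-gene set (red) and of 6 further lists of the unfolded protein response (grey, list names on the vertical axis), 1 point per gene by its brightest probe set. Blue bars are medians and dotted lines mark 2-fold; most points lie within 2-fold, and the Atf4 and Ddit3 targets spread widest, up to Nupr1 at 4.51-fold for 18 over 14.

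Genes with the most similar pattern were named by distance between log2 values centred on each gene's mean over the 3 cultures. Nearest to Hspa5 were Mrpl24 (distance 0.0020), Svs5 (0.0029) and Dclre1b (0.0036), in a field where 721 of 9258 other detected genes lay within 0.1. Nearest to Ddit3 were Ublcp1 (0.016), Pdgfc (0.024) and Fbxo9 (0.034), and 23 of 9258 lay within 0.1. With 3 cultures such likeness is a description of 3 values per gene.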

How the data were processed

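RNA of 3 imLEC cultures was amplified to single-stranded cDNA and hybridised to 1-colour mouse arrays, per the labels' protocols. The deposited table gives 1 linear signal intensity per probe set and array. The submitters' processing notes name MAS5 without role or version, and what else was done to reach the values is not given in the sources used here. All arrays shared 1 scale (95th percentiles of 1363 to 1367), so the values were taken to log2 without further normalization. Annotation gave 1 gene to 34958 probe sets, several to 932 and none to 9211. Symbols were updated by Entrez identifier to RefSeq (GRCm38.p6), matching 34754.

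Each gene was represented by its brightest probe set. The floor was the 95th percentile of 39 genes restricted to other tissues, of which 2 passed it on all arrays. Passage trends were fitted in R 4.3.3 with limma 3.58.1 (eBayes with an intensity trend, Benjamini-Hochberg, adjusted p under 0.05) on genes whose mean exceeded the mean floor, after a check on simulated data. With 1 culture per passage, the p-values measure no spread between replicates. They rest on each gene's departure from a straight line in passage, with 1 residual degree of freedom. That is pooled with 2.70 prior degrees of freedom drawn from all genes tested. The number of arrays, 3, limits all precision. Genes named outside the 10 were the first 4 detected and the widest-ranging of each list and the 3 nearest to Hspa5 and to Ddit3, besides genes below the floor, genes whose promoter holds the element and those said to be named after their values were seen. The members and lists were chosen with earlier results of these data known. Alternatives covered normalization, an added 16, the probe set used, the floor (90th and 99th percentiles), the filter, the design, a 1.5-fold limit and leaving out each culture.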

Additional observations from a re-analysis of the deposited data

How the results depend on the processing

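Detection of all 10 genes held under every alternative run, and limma called 0 of the 10 under each of 10 other settings, at a smallest adjusted p among them of 0.524 to 0.945. Of members past 2-fold, 18 against 13 gave 1 with the median of probe sets and 3 at 1.5-fold in place of 0, and 18 against 14 gave 0 with 16 added before the log and 2 at 1.5-fold in place of 1. For the other lists, genes past 2-fold were 1 in place of 2 (14 against 13) and 3 in place of 6 (18 against 14) with 16 added, and 0 in place of 1 (18 against 13, Trib3) with the median of probe sets or without _x_at and _s_at probe sets. With the median of probe sets the slope per passage turned positive for Hspa5 (0.010), Canx (0.046) and Pdia3 (0.043); the probe sets of Canx and Pdia3 differ in direction. Leaving out each culture in turn, the median SD of the 10 genes ranged from 0.127 to 0.230 and the median slope from -0.10 to 0.048, where the low ends lack passage 18, whose Gapdh ratio was 19.4. Over the same omissions the slope ranged from -0.014 to 0.060 for Hspa5, -0.32 to 0.10 for Calr, -0.16 to 0.023 for Pdia3, -0.20 to 0.128 for Pdia4 and -0.14 to 0.257 for Herpud1. Each such slope is the difference per passage between the remaining cultures. No paired analysis was possible because there is 1 group. Dim probe sets near the floor have no reliable order, and Ddit3 rests on 1 probe set.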
